A study of Mus musculus with 4 samples.

Results

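The genes described here are Olig1 and Olig2, a pair of transcription factor genes inside the segment of mouse chromosome 16 that is duplicated in Dp16 mice, together with 6 marker genes of the oligodendrocyte lineage that lie outside it: Sox10, Pdgfra, Cspg4, Gpr17, Bcas1 and Enpp6. They were chosen by name from the gene list of the deposited matrix, where all 8 were found among 19090 genes, and all 8 were among the 11033 genes with a mean of at least 5 counts per 1000000 UMIs (CPM). Expression was measured by Visium, a spatial assay in which each spot of a slide captures the RNA of a small patch of tissue, as unique molecular identifiers (UMIs). Brain hemisphere sections 10 µm thick, cut between +1 and -2 mm from bregma, came from male mice aged 9 months of 4 genotypes: 5xFAD-Dp16, Dp16, 5xFAD and wild-type C57BL/6J. Dp16 mice carry an extra copy of a segment of chromosome 16 that corresponds to much of human chromosome 21, 5xFAD mice have transgenes of human origin, bearing mutations of inherited Alzheimer's disease and driven by Thy1 regulatory elements, which are active mainly in neurons, and 5xFAD-Dp16 mice carry both. The strain background is given for the wild-type mouse alone. The question addressed is how these lineage genes differ with the duplication, with the transgenes and near plaques.

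There was 1 section per genotype, so no test between genotypes was possible, and every interval below is a 95% interval that covers counting error only. A spot can hold several cells, so fewer cells of the lineage and less RNA per cell cannot be told apart.

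Oligodendrocytes arise from precursors that express Pdgfra and Cspg4, pass through committed and newly formed stages marked by Gpr17, Bcas1 and Enpp6, and end as mature cells that wrap axons in myelin. Olig2 is needed to specify the lineage, Olig1 takes part in maturation and myelin repair, and Sox10 drives myelin genes at the later stages. Down syndrome and its mouse models have been studied for altered myelination, and the presence of Olig1 and Olig2 on the extra segment is one reason for that interest.

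The sections held 2941, 2540, 2347 and 2721 spots in 5xFAD-Dp16, Dp16, 5xFAD and wild-type, with between 26049860 and 36461389 UMIs per section and medians of 9404 to 11639 UMIs per spot. Of 3164 distinct spot barcodes, 1996 occurred in all 4 sections; Visium slides carry a common set of spot barcodes. The region labelled FB took 10.7%, 11.5%, 12.9% and 16.0% of the spots in 5xFAD-Dp16, Dp16, 5xFAD and wild-type. Expression clusters 12 and 13, rich in choroid plexus and meningeal genes, took 6.22%, 5.83% and 6.01% of the spots in these sections and 2.46% in wild-type. Because the mix of tissue differed, levels standardised to a common mix of 12 regions (at least 30 spots in every section) are given beside the whole-section values.

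Olig1 and Olig2 were each highest in a section that carries the duplication. Olig1 (GRCm38 chr16:91269769-91271939, a protein-coding gene) stood at 204.9 CPM in 5xFAD-Dp16 and 199.1 CPM in Dp16, against 164.3 CPM in 5xFAD and 183.8 CPM in wild-type, from 4281 to 7470 UMIs per section. Olig2 (chr16:91225550-91228677, protein-coding), whose end lies 41091 bp before the start of Olig1, stood at 30.5 CPM in 5xFAD-Dp16 and 35.7 CPM in Dp16, against 26.3 CPM in 5xFAD and 27.9 CPM in wild-type. For both genes the 2 sections with the duplication lay above the 2 without it. The order within them differed, since Olig1 was highest in 5xFAD-Dp16 and Olig2 in Dp16.

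The lineage genes outside the segment did not follow that order. Sox10, the lineage's shared HMG-box transcription factor on chromosome 15, had 34.4, 36.9 and 36.9 CPM in 5xFAD-Dp16, Dp16 and 5xFAD and 45.6 CPM in wild-type. Bcas1 on chromosome 2, a gene of early myelinating and mature oligodendrocytes, had 99.9, 96.2 and 99.4 CPM in these sections and 131.1 CPM in wild-type. Enpp6 on chromosome 8, which encodes a choline phosphodiesterase of newly formed oligodendrocytes, had 5.76, 6.44 and 8.94 CPM and 12.2 CPM in wild-type. The wild-type section was thus the highest for these 3 genes, and for Enpp6 it was followed by 5xFAD.

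Wild-type was also the highest section for Pdgfra, which encodes the precursors' receptor for platelet-derived growth factor, and for Gpr17, which encodes a receptor of committed precursors. Pdgfra on chromosome 5 had 15.4, 16.8 and 15.9 CPM in 5xFAD-Dp16, Dp16 and 5xFAD and 18.8 CPM in wild-type. Gpr17 on chromosome 18 had 8.12, 10.5 and 8.33 CPM in these sections and 11.8 CPM in wild-type. Cspg4 on chromosome 9, which encodes the NG2 proteoglycan of precursors and pericytes, had 6.97, 8.09, 8.25 and 7.33 CPM in 5xFAD-Dp16, Dp16, 5xFAD and wild-type. Its counting intervals overlapped across all 4 sections.

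**Figure D1:**
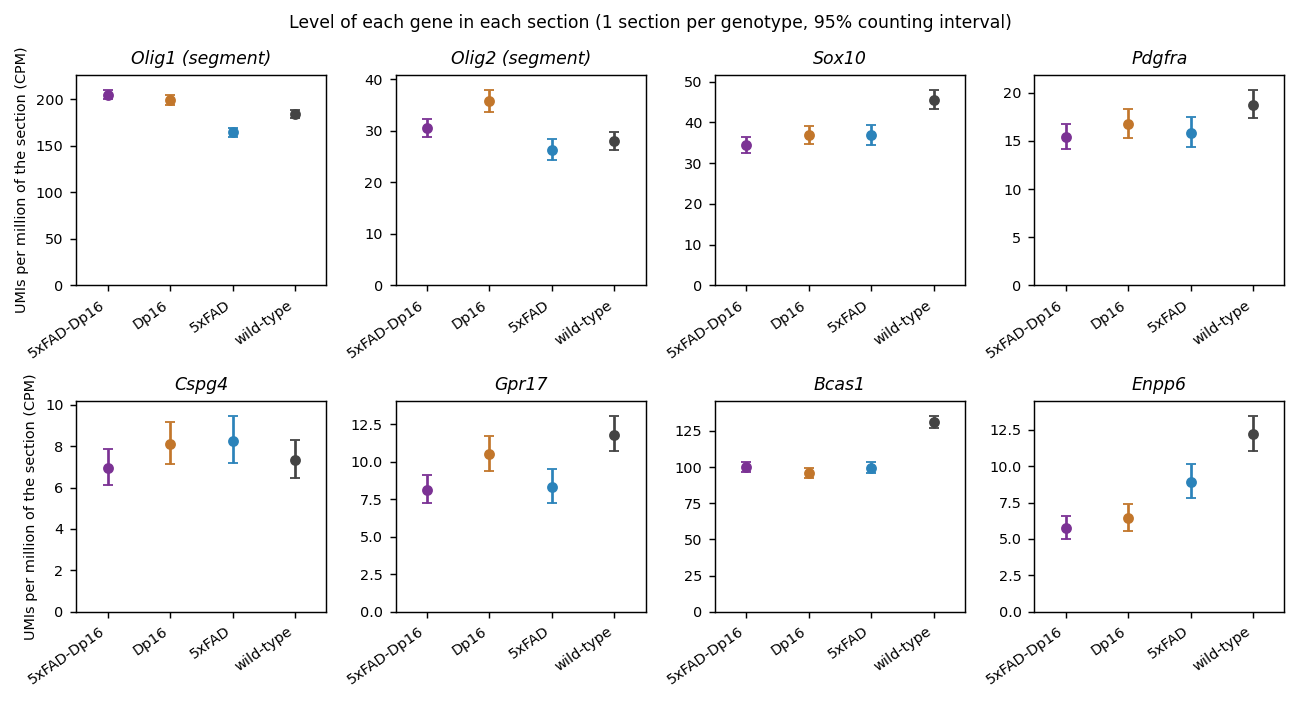
Level of each gene (CPM, vertical axis from 0) in each section, 1 point per section with its 95% counting interval. Olig1 and Olig2 are higher in the 2 sections with the duplication than in the 2 without it, and Sox10, Pdgfra, Gpr17, Bcas1 and Enpp6 are highest in wild-type.

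Set as ratios, the 8 genes differed in direction and between the pairs. In Dp16 over wild-type, Olig2 was higher by 0.35 on the log2 scale (interval 0.23 to 0.48) and Olig1 by 0.12 (0.06 to 0.17), while Sox10 stood at -0.31 (-0.42 to -0.20), Bcas1 at -0.45 (-0.51 to -0.38) and Enpp6 at -0.92 (-1.17 to -0.67). With a call at 1.2-fold, 1 of the 8 genes was higher, where 6.59% of all 11033 genes were, and 3 were lower, where 26.1% were. The median over all genes was -0.13 and that of the 8 genes -0.16. Pdgfra (-0.16), Cspg4 (0.14) and Gpr17 (-0.17) had intervals that included 0. Of all genes, 14.3% were higher and 48.3% lower beyond counting error, so an interval that excludes 0 was common.

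In 5xFAD-Dp16 over 5xFAD, a pair that shares no section with the first, Olig1 was higher by 0.32 (0.26 to 0.37) and Olig2 by 0.21 (0.07 to 0.35). Enpp6 was lower at -0.64 (-0.91 to -0.36), and the other 5 genes lay between -0.24 and 0.01 with intervals that included 0. In this pair 14.9% of all genes were higher and 32.8% lower beyond counting error. At 1.2-fold, 1 gene was higher (Olig1), against 3.75% of all genes, and 1 lower (Enpp6), against 13.8%. Over whole sections Enpp6 was therefore the single gene of the 8 past 1.2-fold in the same direction in both pairs. Of all genes, 5.73% were lower in both. None of the 8 was higher in both over whole sections, where 1.21% of all genes were.

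Standardising to a common mix of regions raised the ratios of Olig1, Olig2, Sox10, Cspg4, Bcas1 and Enpp6 in both pairs. It lowered that of Gpr17 in both, to -0.20 and -0.06. Pdgfra fell to -0.23 in the first pair and rose to -0.01 in the second. Olig1 then stood at 0.24 in Dp16 over wild-type and 0.41 in 5xFAD-Dp16 over 5xFAD, and Olig2 at 0.51 and 0.32. Bcas1 stood at -0.28 and 0.11, Sox10 at -0.11 and 0.06, and Enpp6 at -0.77 and -0.36. By this measure 1 gene was past 1.2-fold higher (Olig2) and 2 lower in the first pair (4.99% and 20.9% of all genes). In the second 2 were higher (Olig1 and Olig2) and 1 lower (4.42% and 13.3%). Olig2 was thus past 1.2-fold higher, and Enpp6 lower, in both pairs. No share of all genes in both pairs is given for the standardised ratios. Leaving out clusters 12 and 13, whose share was lowest in wild-type, gave 0.20 for Olig1 and 0.43 for Olig2 in Dp16 over wild-type.

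**Figure D2:**
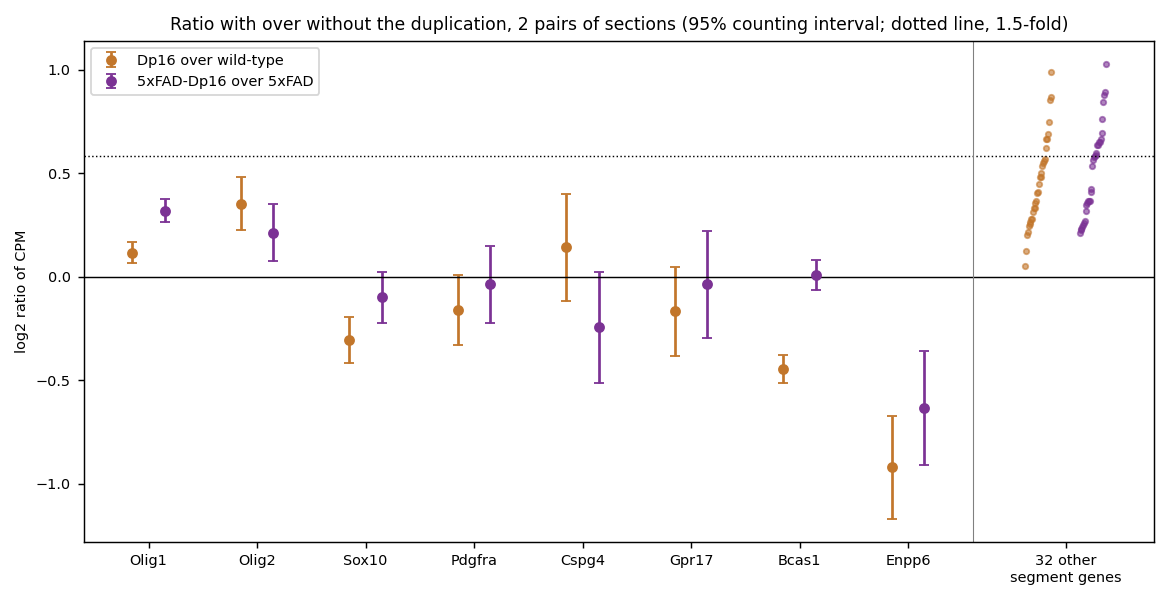
Log2 ratio of CPM (vertical axis) with over without the duplication in the 2 pairs of sections, for the 8 genes with 95% counting intervals and for 32 other genes of the same stretch of chromosome 16 (1 point each, sorted). Over whole sections, Olig1 and Olig2 lie above 0 in both pairs and below the middle of the other segment genes. In 5xFAD-Dp16 over 5xFAD Olig2 lies below all 32 of them. Enpp6 lies below 0 in both pairs.

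The genes beside Olig1 and Olig2 put those ratios in scale. A list of 37 genes lying between 89787111 and 94695519 on chromosome 16 held 32 with at least 5 CPM, of which 26 were higher in Dp16 over wild-type and 26 in 5xFAD-Dp16 over 5xFAD (6.59% and 3.75% of all genes), 22 of them in both (1.21% of all genes), with medians of 0.43 and 0.55. Atp5o, a subunit of the mitochondrial ATP synthase, stood at 0.69 and 0.65, Sod1, the cytosolic superoxide dismutase, at 0.62 and 0.26, and Ttc3, a ubiquitin ligase gene, at 0.26 and 0.36. Mrps6, a mitochondrial ribosomal protein gene, had the highest ratio in the first pair (0.99, with 0.84 in the second) and Scaf4 the lowest (0.05, with 0.23 in the second). Over whole sections Olig1 lay below 31 of the 32 genes in the first pair and below 24 in the second, and Olig2 below 20 and below all 32. Standardised by region, 26 and 27 of the 32 were higher (4.99% and 4.42% of all genes), with medians of 0.45 and 0.50. Olig1 then stood at 0.24 and 0.41, below both medians. Olig2 stood at 0.51 and 0.32, above the median in the first pair and below it in the second. No test sets Olig1 and Olig2 apart from their neighbours, and 3 of the 6 lineage genes outside the segment were themselves past 1.2-fold lower in Dp16 over wild-type.

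The level of Olig1 and Olig2 was therefore also set against the other lineage genes of the same spots, as UMIs of either gene per UMI of the 6 members outside the segment. Olig1 gave 1.201 in the 5xFAD-Dp16 section and 1.14 in the Dp16 section, against 0.925 in the 5xFAD section and 0.810 in wild-type. Olig2 gave 0.179 in the 5xFAD-Dp16 section and 0.204 in the Dp16 section, against 0.148 in the 5xFAD section and 0.123 in wild-type. Both sections with the duplication were above both sections without it for either gene.

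By this measure Olig1 was 1.41-fold higher in Dp16 over wild-type (1.34 to 1.48) and 1.30-fold higher in 5xFAD-Dp16 over 5xFAD (1.23 to 1.37). Olig2 was 1.66-fold higher (1.51 to 1.82) and 1.21-fold higher (1.09 to 1.34) in the same pairs. On the log2 scale these folds were 0.49 and 0.38 for Olig1, whose CPM ratios were 0.12 and 0.32. For Olig2 they were 0.73 and 0.27, with CPM ratios of 0.35 and 0.21. Most of the 0.49 thus came from the denominator, where Sox10 (-0.31), Bcas1 (-0.45) and Enpp6 (-0.92) were lower in CPM. Cspg4 (0.14), whose interval included 0, went the other way. Bcas1 supplied 55.0% to 58.6% of the UMIs in the denominator. Against the 5 other genes without Bcas1, a choice added after values were seen, the log2 ratios of Olig1 were 0.40 and 0.46, and those of Olig2 0.64 and 0.36. Taken against single genes, Olig1 was higher beyond counting error in both pairs against Sox10 (0.42 and 0.42), Pdgfra (0.28 and 0.36), Gpr17 (0.28 and 0.36), Bcas1 (0.56 and 0.31) and Enpp6 (1.04 and 0.95). The exception was Cspg4 in the first pair, at -0.03 (-0.29 to 0.24), against 0.56 in the second. Olig2 was higher beyond counting error in both pairs against Sox10 (0.66 and 0.31), Pdgfra (0.52 and 0.25), Bcas1 (0.80 and 0.20) and Enpp6 (1.27 and 0.85). Its interval included 0 against Cspg4 in the first pair, at 0.21 (-0.08 to 0.50), with 0.46 in the second. Against Gpr17 it stood at 0.52 in the first pair, and its interval included 0 in the second, at 0.25 (-0.05 to 0.54).

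Region by region, Olig1 per lineage UMI was higher in 11 of 12 regions in each pair, beyond counting error in 7 regions of Dp16 over wild-type and in 6 of 5xFAD-Dp16 over 5xFAD, and lower beyond counting error in 0 regions of either. Olig2 was higher in 11 and in 10 of 12 regions, beyond counting error in 5 and in 1. No share over all genes is given for this measure. In 5xFAD over wild-type, which do not differ in the duplication, Olig1 per lineage UMI was also higher in 11 of 12 regions, 2 of them beyond counting error, and Olig2 in 9, with 1 beyond counting error. In 5xFAD-Dp16 over Dp16 Olig1 was higher in 7 regions and Olig2 in 4. Over whole sections, between sections that differ in the 5xFAD transgenes the same measure of Olig1 was 0.19 in 5xFAD against wild-type and 0.08 in 5xFAD-Dp16 against Dp16, and that of Olig2 was 0.27, as large as in 5xFAD-Dp16 over 5xFAD, and -0.19. Those 2 pairs use the same 4 sections, so they give no separate measurement of the spread between sections.

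**Figure D3:**
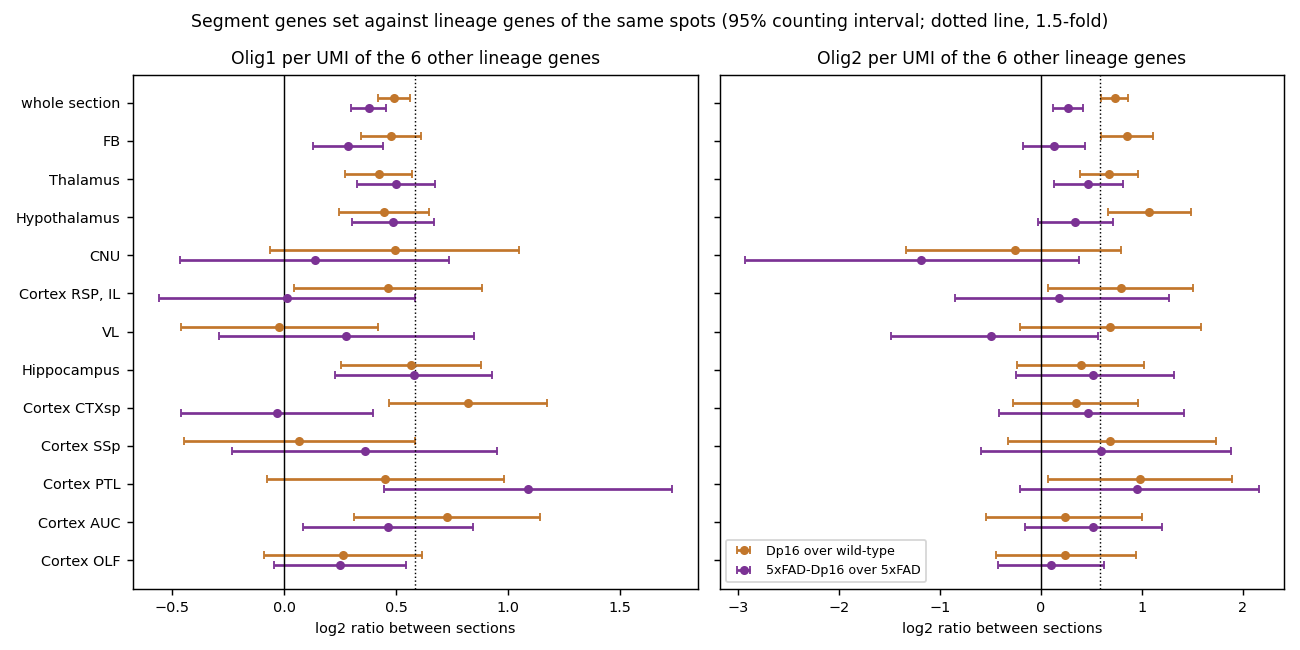
Log2 ratio between sections (horizontal axis) of Olig1 (left) and Olig2 (right) UMIs per UMI of the 6 lineage genes outside the segment, for the whole section and for 12 regions, in the 2 pairs that differ in the duplication, with 95% counting intervals. Whole-section values are 0.49 and 0.38 for Olig1 and 0.73 and 0.27 for Olig2, and most regions lie right of 0.

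Across regions, 7 of the 8 genes had their highest mean in the region labelled FB, and 4 of them, Olig1, Olig2, Sox10 and Bcas1, had levels there above those of any other compared region in any section. In FB the summed level of 27 mature oligodendrocyte genes was 39637, 29360, 33892 and 37034 CPM in 5xFAD-Dp16, Dp16, 5xFAD and wild-type, against 7510 to 9351 CPM over whole sections. Olig1 had 741.9, 549.4, 491.6 and 553.8 CPM in FB of these sections, and next came Thalamus with 290.3, 299.2, 251.5 and 237.1 CPM. The lowest mean of Olig1 was in Cortex OLF, at 76.7 to 99.5 CPM. For these 4 genes Thalamus came next, and the ranges over sections of Thalamus and the region after it overlapped, so that their order is not beyond the spread.

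Sox10 had 172.1, 158.4, 145.2 and 182.6 CPM in FB of 5xFAD-Dp16, Dp16, 5xFAD and wild-type, and Bcas1 481.3, 288.4, 364.8 and 440.5 CPM. Enpp6 had 43.3, 33.0, 41.2 and 62.8 CPM there. As folds of FB over the other spots of the same section, Enpp6 was 7.0 to 12.4-fold higher, Sox10 5.4 to 6.6-fold, Bcas1 3.7 to 6.3-fold, Olig1 3.3 to 4.3-fold and Olig2 3.4 to 4.3-fold. Enpp6 had 39.5% to 58.5% of its UMIs in FB. Enpp6 thus had the largest such fold of the 8 genes in each of the 4 sections.

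Precursor genes were flatter. Pdgfra over the same contrast was 1.2 to 1.7-fold higher in FB, Cspg4 1.4 to 2.1-fold and Gpr17 1.2 to 2.3-fold. The highest mean for Pdgfra was in VL, at 22.2, 25.8, 19.95 and 29.4 CPM in 5xFAD-Dp16, Dp16, 5xFAD and wild-type, followed by FB and then Cortex OLF with overlapping ranges, and the lowest was in Cortex SSp at 6.8 to 10.5 CPM. VL is the region of choroid plexus genes, whose 8 listed markers summed to between 148571 and 269160 CPM there.

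**Figure D4:**
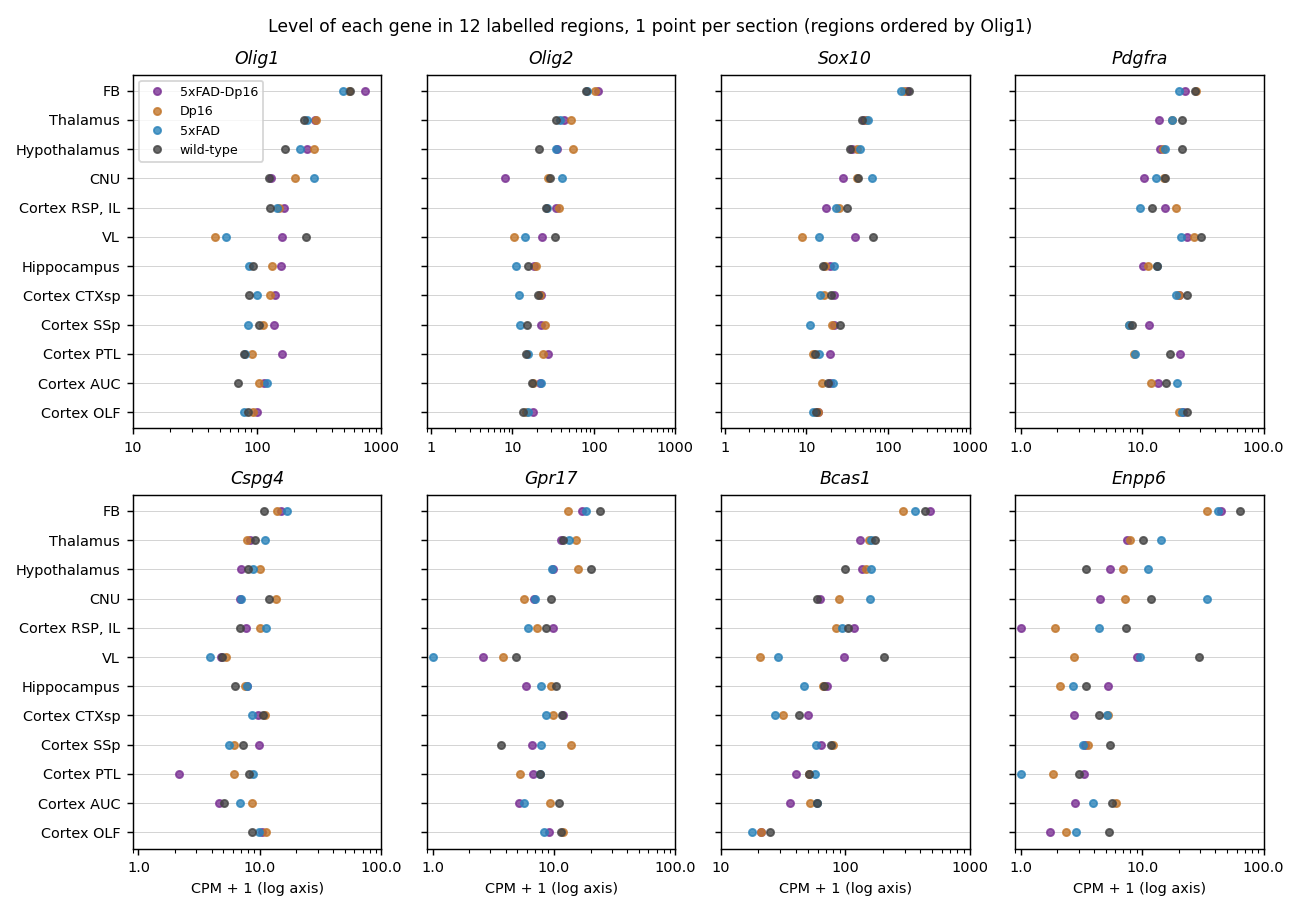
CPM + 1 (log axis) of each gene in 12 labelled regions, 1 point per section, with regions ordered by the mean of Olig1. Olig1, Olig2, Sox10, Bcas1 and Enpp6 are highest in FB, while Pdgfra, Cspg4 and Gpr17 are spread over a narrower range of levels, apart from low values in VL for Cspg4 and Gpr17.

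Pdgfra is also made by meningeal fibroblasts, and it was high in VL and in clusters 12 and 13, which are rich in their genes. The levels did not go together in every region. In Cortex CTXsp the meningeal fibroblast markers summed to 176, 490, 528 and 63 CPM in 5xFAD-Dp16, Dp16, 5xFAD and wild-type. Pdgfra had 19.1, 18.9, 17.9 and 22.5 CPM there. In clusters 12 and 13 Pdgfra had 30.3, 32.8, 23.8 and 30.0 CPM in 5xFAD-Dp16, Dp16, 5xFAD and wild-type, against 14.4, 14.997, 15.3 and 18.4 CPM in all other spots, a fold of 2.11, 2.19, 1.56 and 1.63. Pdgfra was the gene of the 8 with an interval above 1 in each of the 4 sections, but Enpp6 was higher in these clusters too in 5xFAD (2.30-fold, 1.55 to 3.32) and wild-type (1.79-fold, 1.11 to 2.74), and stood at 1.09 and 0.95-fold in 5xFAD-Dp16 and Dp16. Sox10 stood at 0.79, 0.63, 1.17 and 1.26-fold in 5xFAD-Dp16, Dp16, 5xFAD and wild-type, Olig1 at 0.70, 0.46, 0.89 and 1.15-fold and Bcas1 at 0.80, 0.57, 1.07 and 1.10-fold. Olig2 (0.47 to 0.90-fold), Cspg4 (0.52 to 0.95-fold) and Gpr17 (0.32 to 0.81-fold) were below 1 in each section. Over whole sections the 11 meningeal fibroblast markers summed to 226, 389 and 260 CPM in 5xFAD-Dp16, Dp16 and 5xFAD and 135 CPM in wild-type, and the 11 pericyte and smooth muscle markers to 139, 155, 141 and 138 CPM, with no marker of either list at 0 in a section. Without clusters 12 and 13, Pdgfra in Dp16 over wild-type was -0.30 (-0.48 to -0.12), against -0.16 with all spots. The part of meningeal cells in the Pdgfra signal was not tested.

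Over the 48 groups of section and region, the log2(CPM + 1) of Olig1 and Olig2 had a Pearson r of 0.91, Olig1 and Sox10 0.93, and Sox10 and Bcas1 0.90. Pdgfra had r between 0.08 and 0.39 with the other 7 genes. These groups share 4 libraries and 12 region labels, so r is a description. Among genes of at least 5 CPM outside the 8, those most like Olig1 were Tsc22d4 (r = 0.97), Il33 (0.95) and S100b (0.94), and those most like Olig2 were S100b, Il33 and Csrp1 (0.89 each).

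Sox10 was most like Cnp, Mag and Ppp1r14a (0.96, 0.96 and 0.95) and Bcas1 most like Qdpr, Mbp and Mobp (each 0.97). Enpp6 was most like Efcab14 (0.89), Gab1 (0.88) and Abca2 (0.88), and Gpr17 most like Wasf3 (0.80), Mmd2 (0.78) and Mdga2 (0.76). Pdgfra was most like Derl1 (0.79), Cd24a (0.71) and Trp53i13 (0.68), and Cspg4 most like Elavl3 (0.66), Imp4 and Rasa3 (each 0.62).

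Within regions, the ratio of Olig1 in Dp16 over wild-type was uneven. It was 0.78 in Hypothalamus (288.5 CPM in Dp16 and 167.6 CPM in wild-type), 0.34 in Thalamus, 0.52 in Hippocampus, -0.01 in FB and -2.46 in VL. Without the Hypothalamus the whole-section ratio was -0.01, and without FB it was 0.28. Olig2 stood at 1.41 in Hypothalamus (54.3 CPM in Dp16 and 20.4 CPM in wild-type), and without that region its whole-section ratio was 0.18. Other lineage genes moved with these labels: in Hypothalamus the mature oligodendrocyte list summed to 8531, 9231 and 10328 CPM in 5xFAD-Dp16, Dp16 and 5xFAD and 5712 CPM in wild-type, and in VL to 8914, 2829 and 4918 CPM and 18211 CPM in wild-type. Set against the 6 other lineage genes, leaving out Hypothalamus, an alternative added after values were seen, gave 0.48 for Olig1 and 0.66 for Olig2, close to 0.49 and 0.73 over all spots.

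In 5xFAD-Dp16 over 5xFAD the regional pattern of Olig1 was another one, with 0.59 in FB (741.9 CPM in 5xFAD-Dp16 and 491.6 CPM in 5xFAD), 0.85 in Hippocampus, 0.21 in both Hypothalamus and Thalamus, 1.51 in VL and -1.15 in CNU, a region of 30 spots in 5xFAD. Olig1 was higher in 10 of 12 regions in each pair, 6 of them beyond counting error in the first pair and 9 in the second. Olig2 was likewise higher in 10 of 12 regions in each pair, 3 of them beyond counting error in each. Either gene was lower beyond counting error in 1 region of each pair. Of the 12 regions, Olig1 was higher in both pairs in 8 and Olig2 in 9. No share over all genes is given for these counts of regions.

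Enpp6 and Bcas1 varied by region as well. In FB, where Enpp6 was highest, Enpp6 stood at -0.93 (-1.30 to -0.57) in Dp16 over wild-type and at 0.07 (-0.37 to 0.51) in 5xFAD-Dp16 over 5xFAD. In Thalamus it stood at -0.38 (-1.03 to 0.25) and -1.06 (-1.75 to -0.38) and in Hypothalamus at 1.30 (0.16 to 2.58) and -1.20 (-1.99 to -0.42). Enpp6 was lower in 9 of 12 regions in the first pair and in 7 of 9 regions in the second, where 3 regions with a count of 0 in one section or at most 3 UMIs in both give no ratio. Of the 9 regions with a ratio in both pairs, 4, with Thalamus among them, were lower in both. Bcas1 in FB was -0.61 in the first pair and 0.40 in the second.

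Between sections that differ in the 5xFAD transgenes, none of the 8 genes was past 1.2-fold higher. In 5xFAD over wild-type 4 were lower, where 16.0% of all genes were lower and 5.72% higher: Gpr17 at -0.50 (-0.75 to -0.26), Enpp6 at -0.45 (-0.68 to -0.21), Bcas1 at -0.40 (-0.47 to -0.33) and Sox10 at -0.31 (-0.42 to -0.19). In 5xFAD-Dp16 over Dp16 Gpr17 alone was lower, at -0.37 (-0.61 to -0.14), where 8.56% of all genes were lower and 4.94% higher. Gpr17 was thus the single gene of the 8 lower in both of these pairs, against 1.89% of all genes, and none was higher in both, against 1.15%. Standardised by region, Gpr17 stood at -0.43 and -0.29, whereas Sox10, Bcas1 and Enpp6 in 5xFAD over wild-type stood at -0.11, -0.13 and -0.22, with FB taking 12.9% of spots in 5xFAD and 16.0% in wild-type. By that measure 1 gene was higher (Cspg4, 0.28) and 2 lower (Pdgfra at -0.30, and Gpr17) in 5xFAD over wild-type, where 5.97% and 15.8% of all genes were, and 0 higher and 1 lower for 5xFAD-Dp16 against Dp16, where 5.82% and 10.3% were. In the same 2 pairs Olig1 stood by that measure at 0.02 (-0.04 to 0.08) and 0.18 (0.13 to 0.24). Olig2 stood at 0.09 (-0.06 to 0.24) and -0.10 (-0.23 to 0.04). Over whole sections Olig1 stood at -0.16 (-0.22 to -0.11) and 0.04 (-0.01 to 0.09), and Olig2 at -0.09 (-0.23 to 0.06) and -0.23 (-0.35 to -0.10). The microglia list summed to 1249 and 1384 CPM in 5xFAD-Dp16 and 5xFAD, against 556 and 646 CPM in Dp16 and wild-type.

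Plaque spots are marked in the deposited spot table of the 2 sections with the transgenes. There were 396 plaque, 759 neighbouring and 1786 unmarked spots in 5xFAD-Dp16, and 324, 628 and 1395 in 5xFAD. Spots were compared within regions that held at least 10 of each kind, so that 380 plaque and 1556 unmarked spots of 11 regions were used in 5xFAD-Dp16, and 310 and 1234 spots of 10 regions in 5xFAD. Plaque, neighbouring and unmarked spots had medians of 10835, 10420 and 11794 UMIs in 5xFAD-Dp16, and of 10286.5, 9960.5 and 9088 in 5xFAD. In plaque spots of these sections 10 and 9 of 10 microglia markers were higher, against 13.6% and 10.6% of all genes, with medians of 1.12 and 1.25. How the marks were made is not given, so these values cannot check them.

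Enpp6 was the gene of the 8 with the largest plaque ratio, and it was lower in both sections. It had 3.87 CPM in plaque spots and 6.76 CPM in unmarked spots of 5xFAD-Dp16, a log2 ratio of -0.81 (-1.64 to 0.03), and 5.78 CPM and 11.5 CPM in 5xFAD, a ratio of -0.99 (-1.73 to -0.25). Those values rest on 14 and 18 UMIs in plaque spots, against 103 and 122 in unmarked spots, and only the second interval excludes 0. In neighbouring spots the Enpp6 ratios were 0.34 (-0.12 to 0.79) and 0.14 (-0.30 to 0.58).

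Bcas1 and Olig1 were higher in plaque spots of 5xFAD-Dp16. Bcas1 had 147.3 CPM in plaque spots and 112.3 CPM in unmarked spots, a ratio of 0.39 (0.24 to 0.54), and was higher in 10 of 11 regions, 2 of them beyond counting error, with 0.90 in Hypothalamus. Olig1 had 271.6 CPM in plaque spots and 225.8 CPM in unmarked spots, a ratio of 0.27 (0.16 to 0.37), and Olig2 had the same ratio of 0.27 with an interval that includes 0 (-0.01 to 0.56). In 5xFAD the corresponding values were 0.02 for Bcas1, -0.07 for Olig1 and 0.18 for Olig2, all with intervals that included 0. Olig1 and Olig2 in plaque spots of 5xFAD-Dp16 stood at -0.05 and -0.03, and Bcas1 at 0.17, when spots were matched by the authors' expression cluster in place of the region.

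In all, 3 of the 8 genes were past 1.2-fold higher in plaque spots of 5xFAD-Dp16 and 2 lower (Gpr17 at -0.30 on 30 UMIs, and Enpp6), where 13.6% and 15.0% of all genes were. In 5xFAD none was higher, where 10.6% of all genes were, and 2 were lower (Cspg4 at -0.55 on 29 UMIs, and Enpp6), where 17.9% were. Pdgfra stood at -0.14 and -0.22 and Sox10 at 0.07 and 0.02, with intervals that included 0. In neighbouring spots 3 genes were higher in 5xFAD-Dp16 (9.5% of all genes) and none lower (8.11%): Olig2 at 0.33 (0.11 to 0.55), Gpr17 at 0.31 and Enpp6 at 0.34. In neighbouring spots of 5xFAD none was higher (8.03%) and Cspg4 was lower (11.0%), at -0.63 (-1.16 to -0.10). The sections were not tested against each other.

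**Figure D5:**
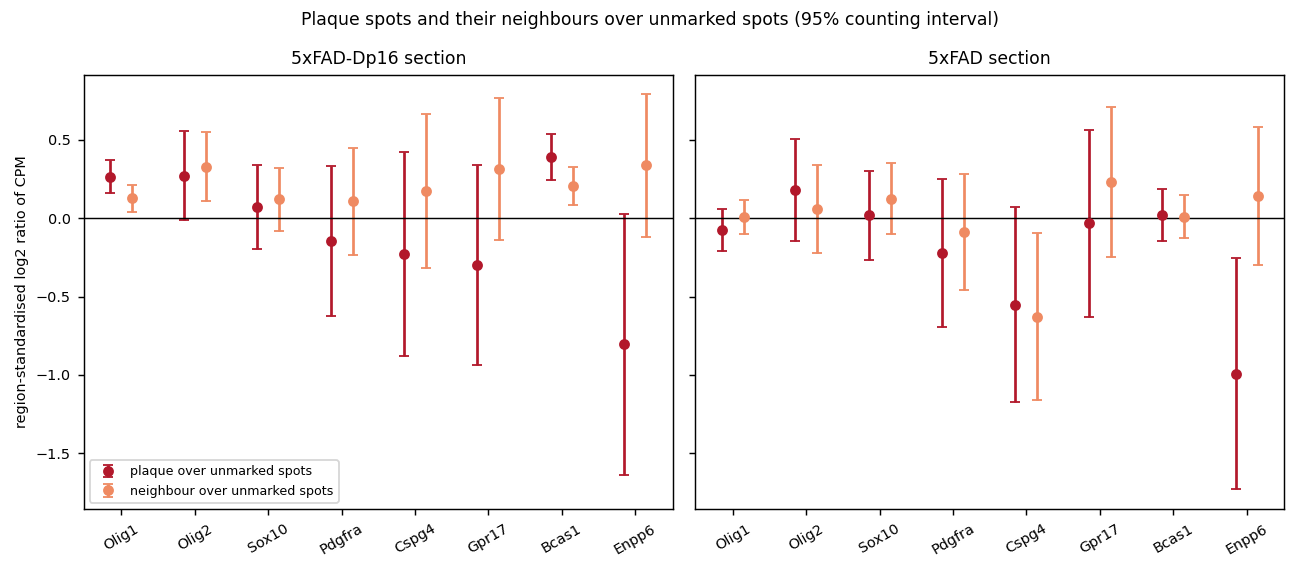
Region-standardised log2 ratio of CPM (vertical axis) of plaque spots and of neighbouring spots over unmarked spots in the 5xFAD-Dp16 section (left) and the 5xFAD section (right), with 95% counting intervals. Enpp6 is low in plaque spots of both sections with wide intervals, and Olig1 and Bcas1 are above 0 in plaque spots of 5xFAD-Dp16 with intervals that exclude 0, which those of 5xFAD include.

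Genes of the mature cell that the lineage ends in were lower more often than higher over whole sections, while at a common mix of regions the share of them that was lower was below that of all genes. Of 27 mature oligodendrocyte genes, 15 were past 1.2-fold lower and 0 higher in Dp16 over wild-type, where 26.1% of all genes were lower and 6.59% higher (median -0.31, against -0.13 over all genes). In 5xFAD-Dp16 over 5xFAD 9 were lower and 3 higher, where 13.8% and 3.75% of all genes were (median -0.18, against -0.07), and 7 were lower in both pairs, against 5.73% of all genes. Standardised by region, 4 were lower and 0 higher in the first pair, where 20.9% and 4.99% of all genes were (median -0.14, against -0.11), and 2 lower and 3 higher in the second, where 13.3% and 4.42% were (median -0.01, against -0.06). Mbp, myelin basic protein, had ratios of -0.29 in Dp16 over wild-type and -0.12 in 5xFAD-Dp16 over 5xFAD. In the same pairs Mobp, another myelin protein gene, stood at -0.26 and 0.04, Klk6, a protease gene, at -0.40 and -1.36, and Il33, a cytokine gene, at 0.05 and 0.36.

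Smaller lists of the lineage are read against the same shares of all genes, 26.1% lower and 6.59% higher in Dp16 over wild-type and 13.8% lower and 3.75% higher in 5xFAD-Dp16 over 5xFAD, and against the medians of all genes, -0.13 and -0.07. Of 9 other precursor genes, 1 was higher and 4 lower in Dp16 over wild-type (median -0.24), and 0 higher and 4 lower in 5xFAD-Dp16 over 5xFAD (median -0.26). Standardised by region, 1 was higher and 3 lower in the first pair, where 4.99% and 20.9% of all genes were. In the second 0 were higher and 4 lower, where 4.42% and 13.3% were. Ptprz1, a receptor phosphatase gene, stood at -0.37 and -0.26, Tnr, which encodes tenascin-R, at -0.17 and -0.37, Megf11 at -0.24 and -0.75, and C1ql1 at 0.92 and -0.22. Of 5 other genes of newly formed oligodendrocytes, 1 was lower in the first pair (median -0.21) and 0 in the second (median -0.05, above that of all genes), and none was higher. Sirt2, a deacetylase gene, stood at -0.22 and -0.21, Fyn, a kinase gene, at -0.21 and -0.05, and Tmem141 at 0.06 and 0.18.

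Of 10 other lineage transcription factors, 1 was higher and 5 lower in Dp16 over wild-type, where 26.1% of all genes were lower, and 0 higher and 4 lower in 5xFAD-Dp16 over 5xFAD, where 13.8% were lower. Standardised by region, 4 were lower in the first pair and 1 in the second, where 20.9% and 13.3% of all genes were. Tcf7l2, a Wnt pathway factor that is also abundant in thalamic neurons, stood at -0.72 and -0.36, Zeb2 at -0.19 and -0.36, Nkx6-2 at -0.19 and -0.15, and Hes5, a Notch target, at 0.34 and -0.18. Of 10 ligands and signalling partners, 4 were lower in the first pair and 2 in the second, against the same 26.1% and 13.8% of all genes, and none was higher. By region 5 and 1 were lower, where 20.9% and 13.3% of all genes were, so that only the second pair was near that share. Gpr37l1, a receptor gene, stood at -0.10 and 0.06, Lingo1, which encodes an inhibitor of myelination, at -0.30 and -0.24, Gpr37 at -0.47 and -0.25, and Erbb3, a neuregulin receptor gene, at -0.56 and -0.22.

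With the 5xFAD transgenes, the direction of the mature genes turned with the mix of regions. Over whole sections 5 of the 27 were lower and 0 higher in 5xFAD over wild-type (median -0.14), near the 16.0% of all genes that were lower, with 5.72% higher. In 5xFAD-Dp16 over Dp16 2 were lower and 3 higher (median -0.03), where 8.56% and 4.94% of all genes were. Standardised by region, 0 were lower and 4 higher in 5xFAD over wild-type (median 0.08), where 15.8% and 5.97% of all genes were, and 1 lower and 10 higher in 5xFAD-Dp16 over Dp16 (median 0.20), where 10.3% and 5.82% were. Over whole sections Opalin, a gene of mature oligodendrocytes, stood at -0.03 and 0.41, and Mbp at -0.39 and -0.21. In plaque spots, 14 of the 27 were higher and 0 lower in 5xFAD-Dp16 (median 0.28), where 13.6% of all genes were higher and 15.0% lower. In plaque spots of 5xFAD 1 was higher and 2 lower (median 0.02), where 10.6% and 17.9% of all genes were. Opalin was higher in both, at 0.33 and 0.34.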

How the data were processed

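The deposited matrix holds raw UMI counts per gene and spot, and the spot table gives total counts, the percent of mitochondrial counts, section, region, expression cluster and plaque marks, all made by the authors. Space Ranger, Seurat and the mm10 build are named in the submitters' processing notes; versions, and how regions, clusters and marks were made, are not given in the sources used here. Every deposited spot was kept, and summed counts equalled the deposited totals in all 10549 spots. A spot can hold several cells, so no doublet caller was run.

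Counts were summed per section, region and plaque status and scaled to CPM. Sums have exact Poisson intervals, ratios exact conditional binomial intervals, and per-lineage ratios exact conditional odds ratio intervals. Standardised ratios weight regional CPM by pooled spots (plaque comparisons by plaque spots), with intervals from Poisson variances. A count of 0 was set to 3 counts in a ratio, and a ratio within 1 region was left out where either count was 0 or both were at most 3. A call is past 1.2-fold. Interval coverage was tested on simulated Poisson counts only, which cannot show spread beyond counting error between spots or sections. Positions came from RefSeq for GRCm38. The genes and lists were chosen with earlier results of these data known. Named are the 8 genes; for each list the 3 most abundant genes and those with the highest and lowest ratio, of which a selection is printed and some are not reported here; and for each gene the 3 most alike by Pearson r. Alternatives were another scaling (TMM, edgeR 4.0.16), region weights, filters on spots, regions and clusters, and other denominators. Python 3.11.15, numpy 2.4.6, scipy 1.17.1, pandas 2.3.3, matplotlib 3.10.9 and R 4.3.3 were used.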

Additional observations from a re-analysis of the deposited data

Results flagged for a closer look

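Some genes had ratios of opposite direction in 2 pairs that ask the same question. With 1 section per genotype none of these differences was tested.

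Over whole sections, Olig1 stood at -0.16 in 5xFAD over wild-type and at 0.041 in 5xFAD-Dp16 over Dp16. Standardised by region, these ratios were 0.02 and 0.18, and so not of opposite direction. In plaque over unmarked spots Olig1 stood at 0.27 in 5xFAD-Dp16 and at -0.073 in 5xFAD. Bcas1 over whole sections stood at -0.45 in Dp16 over wild-type and at 0.0072 in 5xFAD-Dp16 over 5xFAD. It stood at -0.40 in 5xFAD over wild-type and 0.055 in 5xFAD-Dp16 over Dp16, so that by this measure wild-type stood apart from the other 3. Standardised by region it did not, with Bcas1 at 136.8, 114.4, 126.8 and 139.1 CPM in 5xFAD-Dp16, Dp16, 5xFAD and wild-type. Cspg4 stood at 0.14 in Dp16 over wild-type and -0.24 in 5xFAD-Dp16 over 5xFAD, and at 0.17 in 5xFAD over wild-type and -0.22 in 5xFAD-Dp16 over Dp16, each with a counting interval that included 0.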

How the results depend on the processing

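Of 536 recomputed values of 72 ratios of single genes, 486 kept their direction. Some could not change, since all spots of Dp16 and wild-type are unmarked and the unmarked-spot setting repeats their ratio. Olig1 in Dp16 over wild-type (0.12) moved to 0.20 with TMM factors, 0.24 standardised by region, 0.28 over regions of at least 100 spots, 0.040 as a mean over spots, 0.20 without clusters 12 and 13, -0.011 without Hypothalamus and 0.28 without FB. Olig2 in that pair (0.35) moved to 0.51, 0.56 and 0.18 by region, over larger regions and without Hypothalamus. Olig1 in 5xFAD-Dp16 over 5xFAD (0.32) moved to 0.38 with TMM, 0.41 by region, 0.43 over larger regions, 0.41 as a mean over spots and 0.24 in unmarked spots. Per lineage UMI, Olig1 in Dp16 over wild-type stood at 0.41 against the mature list and 0.40 without Bcas1, Olig1 in the other pair at 0.46 without Bcas1, and Olig2 in Dp16 over wild-type at 0.56 as a mean over regions.

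The count past 1.2-fold in 5xFAD over wild-type (4) was 2 without FB and 0 at 1.5-fold. In 5xFAD-Dp16 over Dp16 (1) it was 3 in unmarked spots, 0 at 1.5-fold and 2 by counting intervals. By those intervals 0 were higher and 2 lower, where 17.8% and 24.1% of all genes were. In plaque spots of 5xFAD-Dp16 the count (5) was 3 as a mean over spots and 1 at 1.5-fold. In plaque spots of 5xFAD (2) it was 4 by expression cluster and 1 at 1.5-fold. For the other settings of these counts no share of all genes is given, so they cannot be set against one. Enpp6 in 5xFAD over wild-type turned to 0.052 without FB, and Olig1 and Olig2 in plaque spots of 5xFAD-Dp16 turned to -0.049 and -0.030 by expression cluster. The cause of these moves was not tested. No paired analysis was possible because each genotype has 1 section. Depth limits Cspg4, Gpr17 and Enpp6 most, with 199 to 419 UMIs per section, and their regional and plaque values cannot show small differences.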
